A study of Mus musculus with 12 samples.

Results

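The nuclear-encoded subunits of the respiratory chain and ATP synthase were followed in marrow stem and progenitor cells of wild-type (WT) and Tet2-/-Flt3ITD mice. Members were taken by gene name, as the rows of the count table whose symbol begins with Ndufa, Ndufb, Ndufc, Ndufs, Ndufv, Sdha to Sdhd, Uqcr, Cox4i, Cox5, Cox6, Cox7, Cox8 or Atp5, leaving out pseudogenes so named and the Ndufaf and Sdhaf assembly factors. This gave 82 members of the 21497 rows, of which 37 belong to complex I, 4 to complex II, 8 to complex III, 15 to complex IV and 18 to ATP synthase (complex V). Of these, 81 passed the filter on low counts, beside 16042 rows tested in all, and Cox7a1 did not. The name rule also took Dmac2 (deposited as Atp5sl), an assembly factor, Atp5s (factor B), Cox7a2l, a supercomplex assembly factor, and Atp5l2-ps, annotated as a processed pseudogene, and it missed Cyc1, the cytochrome c1 subunit of complex III, which is given with the electron carriers below.

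The 4 groups were LSK cells and granulocyte-macrophage progenitors (GMP) of WT mice and of mice with loss of Tet2 and an internal tandem duplication in Flt3 (T2F3), all on a C57BL/6 background with a donor age of 0.35 years, and each group held 3 libraries. Tet2 is a dioxygenase that oxidises 5-methylcytosine, and Flt3 is a receptor tyrosine kinase that the duplication makes active without ligand. LSK cells are lineage-negative cells with Kit and Sca-1, a population rich in stem cells and multipotent progenitors, and GMP lie further down the myeloid path. Both were sorted from femur and tibia marrow after depletion of lineage-positive cells, and the sort text of the labels writes the LSK gate as Sca-1 negative, against the meaning of the name. The labels do not say whether the alleles act in all cells or under a Cre, they refer to the study's methods for how the animals were treated, which were not used here, and they name no animal per library. P-values therefore measure only the spread among these libraries, which may be technical. The question was what the combined genotype changes in each population.

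Complexes I to IV sit in the inner mitochondrial membrane. Complexes I and II pass electrons from NADH and succinate to ubiquinone, complex III passes them on to cytochrome c, and complex IV gives them to oxygen. Complexes I, III and IV pump protons as they do so, and ATP synthase lets the protons back to make ATP. Most subunits are encoded in the nucleus, made in the cytosol and imported, while a core set is encoded by mitochondrial DNA, so both genomes must be expressed to build a complete chain. Quiescent blood stem cells are known for a low rate of respiration, and myeloid differentiation is known to come with more oxidative metabolism.

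Library totals ran from 13316474 to 23536258 counts, so that the 3 counts that a count of 0 allows were 0.111 to 0.228 CPM (CPM are counts relative to the TMM-scaled library total). The 4 libraries numbered 1 stood apart, with counts in 71.1 to 80.8% of rows against 83.7 to 89.8% in the other 8. Small noncoding RNA and clone-named rows took 9.19 to 32.0% of the counts, and the share was highest in T2F3 LSK 1. Tet2 was at 79.0 to 89.0 CPM in WT LSK, against 40.9 to 89.1 CPM in T2F3 LSK, and whole-gene counts give no reading of a deleted part. Flt3 was at 14.4 to 50.8 CPM in WT GMP, against 72.3 to 166 CPM in T2F3 GMP, and at 374 to 463 and 188 to 329.6 CPM in the LSK groups. Ly6a, the gene of Sca-1, was at 11.3 to 46.6 CPM in the LSK libraries and 1.52 to 6.46 CPM in the GMP libraries, and Fcgr3, which marks GMP, was at 1.19 to 5.56 and 24.3 to 160.0 CPM. Kit was at 764 to 1003 CPM in WT LSK, against 243 to 301 CPM in T2F3 LSK. Markers of other cell types also moved with the genotype in LSK, where 2.44% of all genes were called lower and 2.76% higher. Of 11 erythroid markers tested, 7 were lower in T2F3 LSK (summed level 479 to 819 CPM in WT LSK, 47.7 to 114 CPM in T2F3 LSK). Of 7 megakaryocyte markers, 3 were lower (343 to 363 against 43.5 to 65.5 CPM). Of 12 monocyte and dendritic cell markers, 8 were higher (146 to 310 CPM in WT LSK, against 5732, 6077 and 372 CPM in libraries 1, 2 and 3 of T2F3 LSK). The B and plasma cell sum was 289 to 480 CPM in T2F3 LSK and 408 to 2734 in WT LSK (1 of 9 lower), the neutrophil sum 20.4 to 35.8 and 26.8 to 232 CPM (1 of 10 lower), and the T and NK cell sum 27.2 to 63.2 and 28.8 to 38.0 CPM (0 of 4 called). Pax5 and Retnlg were at 0 in T2F3 LSK, Alas2 and Igll1 in WT LSK, and Ncr1 in both. Between the genotypes in GMP, 3 of 11 erythroid and 1 of 7 megakaryocyte markers were lower (0.461% of all genes). There, 4 of 12 monocyte and dendritic cell markers were higher (0.679% of all genes). In WT GMP against WT LSK, 5 of 11 erythroid and 2 of 7 megakaryocyte markers were lower (7.37% of all genes). So were 4 of 9 B and plasma cell and 1 of 4 T and NK cell markers. Higher were 3 of 12 monocyte and dendritic cell and 1 of 9 B and plasma cell markers (5.72% of all genes). The part of these shifts in the results below was not tested. Where a marker moves in bulk RNA, fewer cells of a type and less RNA per cell cannot be told apart, and the same holds for the members.

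The summed level of all 82 members was lowest in WT LSK. WT LSK libraries 1, 2 and 3 held 4404, 3719 and 3976 CPM, and T2F3 LSK held 7063, 4452 and 5311 CPM. WT GMP held 7945, 6727 and 4973 CPM, and T2F3 GMP held 6464, 5162 and 5633 CPM. Every T2F3 LSK library and every GMP library of either genotype thus lay above the highest WT LSK library, the closest being T2F3 LSK 2, and the other 3 groups overlapped each other. As a share of all counts before any scaling, the members took 0.402% ± 0.0102 in LSK and 0.604% ± 0.117 in GMP of WT mice, and 0.574% ± 0.0711 in LSK and 0.595% ± 0.0245 in GMP of T2F3 mice (SD, n = 3). Over the 81 tested members, WT LSK had the lowest of the 4 group means for 65 and WT GMP the highest for 47. The lowest of the 12 libraries was one of the 3 WT LSK libraries for 26, 18 and 15 members. These counts of lowest and highest places were not made over all genes, so whether they are particular to the members was not tested.

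Complex by complex, the sums showed the same low place for WT LSK. Complex I summed to 1101 ± 171 CPM for WT LSK, 1553 ± 284 for T2F3 LSK, 1792 ± 584 for WT GMP and 1624 ± 149 for T2F3 GMP (SD, n = 3, with the groups in this order for the other complexes). Complex II gave 342 ± 35.3, 494 ± 93.1, 551 ± 86.0 and 501 ± 25.05 CPM. ATP synthase gave 1493 ± 53.7, 2157 ± 431, 2630 ± 541 and 2176 ± 176 CPM. Complexes III (476 ± 63.7, 568 ± 194, 740 ± 166 and 608 ± 159 CPM) and IV (621 ± 146, 838 ± 339, 836 ± 122 and 844 ± 178 CPM) had larger spreads beside their differences. The plot of sums shows these libraries 1 by 1, with T2F3 LSK 1 above the other 2 libraries of its group in every complex.

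Levels between members were compared per length, as CPM per kilobase of the annotated transcript averaged over the groups. The highest was the catalytic beta subunit of ATP synthase, Atp5b, at 354, followed by the small complex III subunit Uqcr11 at 324, the alpha subunit Atp5a1 at 259, and the complex IV subunits Cox8a at 257 and Cox4i1 at 225. The lowest of the tested members were Atp5s at 4.28, Ndufb4 at 4.23, Atp5l2-ps at 2.68 and Cox6a2 at 2.38. Medians per complex lay close together, at 42.4, 60.5, 62.2, 62.4 and 54.5 for complexes I to V.

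In LSK cells, 7 of the 81 members were higher in T2F3 than in WT and none was lower. The 7 were Ndufa8 of complex I, Sdhd of complex II, Cox5a, Cox5b and Cox4i2 of complex IV, and Atp5e and Atp5f1 of ATP synthase. The test was edgeR's quasi-likelihood test with Benjamini-Hochberg adjustment over all 16042 genes, and an adjusted p under 0.05 was called. Over all genes, 2.76% were called higher and 2.44% lower. At an unadjusted p under 0.05, 21 members were higher (11.3% of all genes) and 1 lower (10.2%). The tool limma-voom, run throughout with quality weights per library, called 7 higher, of which 6 were among those of edgeR, without Atp5e and with Ndufs8. DESeq2 called 10 higher, which included the 7 of edgeR, and both tools called 0 lower. The log2 difference was above 0 for 70 members (53% of all genes) and below 0 for 11, with a median of 0.47, against 0.05 over all genes tested. All 3 T2F3 libraries lay above all 3 WT libraries for 24 members and below them for 0 (14.7 and 13.3% of all genes). Per complex, the calls and median log2 differences were 1 of 37 and 0.47 in complex I, 1 of 4 and 0.54 in complex II, 0 of 8 and 0.18 in complex III, 3 of 14 and 0.49 in complex IV, and 2 of 18 and 0.60 in ATP synthase. The count rested on single libraries. It was 0 without WT LSK 2 or without T2F3 LSK 1, 1 without WT LSK 1, 2 without WT LSK 3, T2F3 LSK 2 or T2F3 LSK 3, 3 or 4 without WT GMP 2 or any 1 T2F3 GMP library, and 7 to 9 without WT GMP 1 or 3. Without T2F3 LSK 1 the median difference was 0.23.

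**Figure D1:**
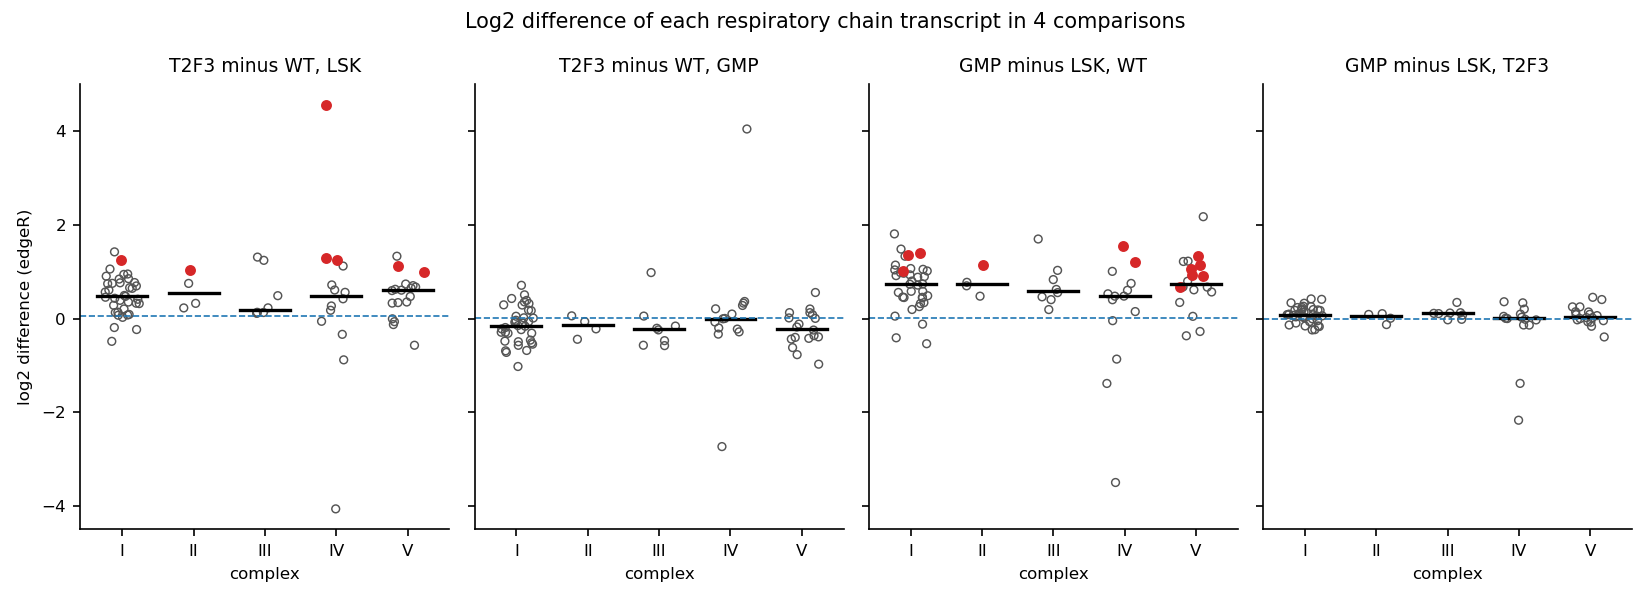
Log2 difference of each of the 81 tested members (points, by complex on the horizontal axis) in 4 comparisons, which are the genotypes within each population and the populations within each genotype. Filled red points passed an adjusted p under 0.05 (7, 0, 12 and 0 members), black bars are the median of the complex, and the dashed blue line is the median of all genes tested.

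Promoter sequences are shown for the 6 of these 7 members that RefSeq's table (GRCm38.p6) held, because they were the members called by genotype. Each run is the 250 bases before the annotated start, 5′ to 3′ on the gene's strand. Capitals mark a match on either strand to the letters GCGC, AN and GCGC in a row, a core of the sites of NRF1, a known regulator of respiratory chain genes, or to CGGAAG, the core bound by ETS factors such as GABPA.
Ndufa8, chr2:36049339-36049588, minus strand: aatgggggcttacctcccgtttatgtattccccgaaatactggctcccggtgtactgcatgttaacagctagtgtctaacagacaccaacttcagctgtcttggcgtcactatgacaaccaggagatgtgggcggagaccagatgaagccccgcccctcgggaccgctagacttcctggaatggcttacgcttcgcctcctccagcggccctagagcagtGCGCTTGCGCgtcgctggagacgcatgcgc
Sdhd, chr9:50603850-50604099, minus strand: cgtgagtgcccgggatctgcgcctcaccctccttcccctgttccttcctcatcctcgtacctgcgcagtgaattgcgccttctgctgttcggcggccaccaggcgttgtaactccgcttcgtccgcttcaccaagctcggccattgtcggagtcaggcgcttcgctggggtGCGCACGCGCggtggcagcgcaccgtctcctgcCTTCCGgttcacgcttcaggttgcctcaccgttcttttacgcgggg
Cox5a, chr9:57520982-57521231, plus strand: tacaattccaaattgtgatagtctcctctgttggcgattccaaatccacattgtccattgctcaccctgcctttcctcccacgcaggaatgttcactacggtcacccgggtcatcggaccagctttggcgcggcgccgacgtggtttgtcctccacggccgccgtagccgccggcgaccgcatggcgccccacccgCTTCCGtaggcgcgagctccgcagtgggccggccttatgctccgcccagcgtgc
Cox5b, chr1:36691237-36691486, plus strand: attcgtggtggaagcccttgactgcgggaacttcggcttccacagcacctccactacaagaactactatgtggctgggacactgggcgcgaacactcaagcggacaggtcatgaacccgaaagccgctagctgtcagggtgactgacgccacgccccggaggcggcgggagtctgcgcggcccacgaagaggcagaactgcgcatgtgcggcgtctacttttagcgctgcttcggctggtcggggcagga
Atp5e, chr2:174464102-174464351, minus strand: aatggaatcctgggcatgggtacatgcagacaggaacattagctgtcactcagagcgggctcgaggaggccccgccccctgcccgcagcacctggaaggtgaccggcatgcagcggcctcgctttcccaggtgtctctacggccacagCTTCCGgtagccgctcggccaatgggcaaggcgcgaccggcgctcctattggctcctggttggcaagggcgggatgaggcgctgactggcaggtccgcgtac
Atp5f1, chr3:105959264-105959513, minus strand: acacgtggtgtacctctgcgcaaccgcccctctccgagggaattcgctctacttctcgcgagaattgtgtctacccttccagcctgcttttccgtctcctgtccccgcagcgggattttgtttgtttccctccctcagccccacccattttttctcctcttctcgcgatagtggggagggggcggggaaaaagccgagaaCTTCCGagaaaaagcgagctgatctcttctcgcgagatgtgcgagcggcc
The NRF1 letters stood once in the runs of Ndufa8 and Sdhd, and the ETS letters once in those of Sdhd, Cox5a, Atp5e and Atp5f1, while the Cox5b run held neither. In windows that went on to 50 bases after the start, 300 bases in all, and over the 68 members with an entry, 17 held the NRF1 letters, 27 held CGGAAG and 7 held ATGGCGGC, letters bound by YY1, on either strand. No one of these 3 strings contains another. Counted per window, the shares were 24.3, 37.8 and 12.2% of 74 member windows, against 4.6, 16.9 and 2.24% of all 32851 promoter windows and 9.51, 29.7 and 4.57% of the 12984 windows of tested genes. A match is a description of the letters and not of a bound site.

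Complex I takes electrons from NADH through 7 core subunits that carry the flavin and the iron-sulfur clusters, surrounded by accessory subunits that stabilise it. Ndufa8, an accessory subunit on the intermembrane side (ENSMUSG00000026895), was its called member in LSK. Ndufa8 measured 21.9, 17.8 and 18.3 CPM in the WT LSK libraries, against 59.1, 32.4 and 47.4 CPM in T2F3 LSK. All T2F3 libraries were higher than all WT libraries, and the difference was 2.39-fold (log2 1.26 ± 0.26 SE, adjusted p = 0.0186). The call was lost without WT LSK 2 (adjusted p = 0.0738), WT LSK 3 (0.0595) or T2F3 LSK 1 (0.0834). Next in order of p came Ndufb9, an accessory subunit of the membrane arm, at 23.1, 33.5 and 24.2 CPM in WT LSK, against 73.8, 46.8 and 47.7 CPM in T2F3 LSK. Its groups did not overlap, and its log2 difference was 1.06 ± 0.29 with an adjusted p of 0.0557. At the other end, Ndufa4, named for complex I but known as a complex IV subunit, stood at 43.1, 31.0 and 41.5 CPM in WT LSK, against 34.4, 22.5 and 25.8 CPM in T2F3 LSK (log2 -0.48 ± 0.29, adjusted p = 0.365). The 7 core subunits had 0 calls in LSK (1 at an unadjusted p under 0.05) and a median log2 difference of 0.14, and the 30 accessory subunits had 1 call and a median of 0.48. The difference between core and accessory subunits was not tested.

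Complex II, succinate dehydrogenase, is the only complex of the chain that is also an enzyme of the citric acid cycle, and all 4 of its subunits are nuclear. Sdhd, a membrane anchor that holds the haem (ENSMUSG00000000171), measured 50.3, 91.2 and 75.0 CPM in the WT LSK libraries, against 183, 118 and 144 CPM in T2F3 LSK. The groups did not overlap, and the difference was 2.06-fold (log2 1.04 ± 0.27, adjusted p = 0.0451). The call was kept only without WT GMP 1 or WT GMP 3, and the adjusted p reached 0.162 among the other 10 fits that left out 1 library. Sdhb, the iron-sulfur subunit, measured 23.7, 24.5 and 27.4 CPM in the WT LSK libraries, against 61.0, 31.7 and 34.7 CPM in T2F3 LSK. It did not overlap either, with a log2 difference of 0.75 ± 0.30 and an adjusted p of 0.165.

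Complex III had no called member in LSK by edgeR (1 of 8 higher at an unadjusted p under 0.05). Uqcrc2, a core protein of the complex, measured 69.3, 72.9 and 68.4 CPM in the WT LSK libraries, against 106, 87.6 and 102 CPM in T2F3 LSK, without overlap (log2 0.49 ± 0.22, adjusted p = 0.222). Its partner Uqcrc1 measured 155, 119.6 and 118 CPM in the WT LSK libraries, against 171, 120.5 and 138 CPM in T2F3 LSK, with overlap (log2 0.13 ± 0.26, adjusted p = 0.830). The small subunit Uqcr10 had a log2 difference of 1.24 ± 0.63 (adjusted p = 0.282), and its level of 0.791 CPM in WT LSK 1 was far under the 8.57 and 8.95 CPM of WT LSK 2 and 3.

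In complex IV, Cox5a and Cox5b, nuclear subunits near the matrix side of the catalytic core, were both called in LSK. Cox5a (ENSMUSG00000000088) measured 23.9, 29.6 and 40.5 CPM in the WT LSK libraries, against 93.4, 54.5 and 83.3 CPM in T2F3 LSK. The groups did not overlap, and the difference was 2.46-fold (log2 1.30 ± 0.28, adjusted p = 0.0206). The Cox5a call was lost without WT LSK 1 (adjusted p = 0.0743), WT LSK 2 (0.0780), T2F3 LSK 1 (0.0887) or T2F3 LSK 3 (0.0505). Cox5b (ENSMUSG00000061518) measured 12.9, 8.62 and 10.6 CPM in the WT LSK libraries, against 29.1, 22.1 and 24.8 CPM in T2F3 LSK. It was 2.36-fold higher without overlap (log2 1.24 ± 0.31, adjusted p = 0.0413), and its call was kept only without WT GMP 1, T2F3 GMP 1 or T2F3 GMP 3. Of the 50-base windows of the Cox5a transcript 32.0%, and of those of Cox5b 25.9%, were also held by another gene's transcript. Part of the counts of these 2 genes may thus be shared with copies. Not all of complex IV lay on the higher side. Cox7c, a small subunit, was at 51.5, 60.8 and 49.2 CPM in WT LSK, against 72.5, 25.3 and 30.5 CPM in T2F3 LSK, with overlap (log2 -0.34 ± 0.41, adjusted p = 0.694).

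**Figure D2:**
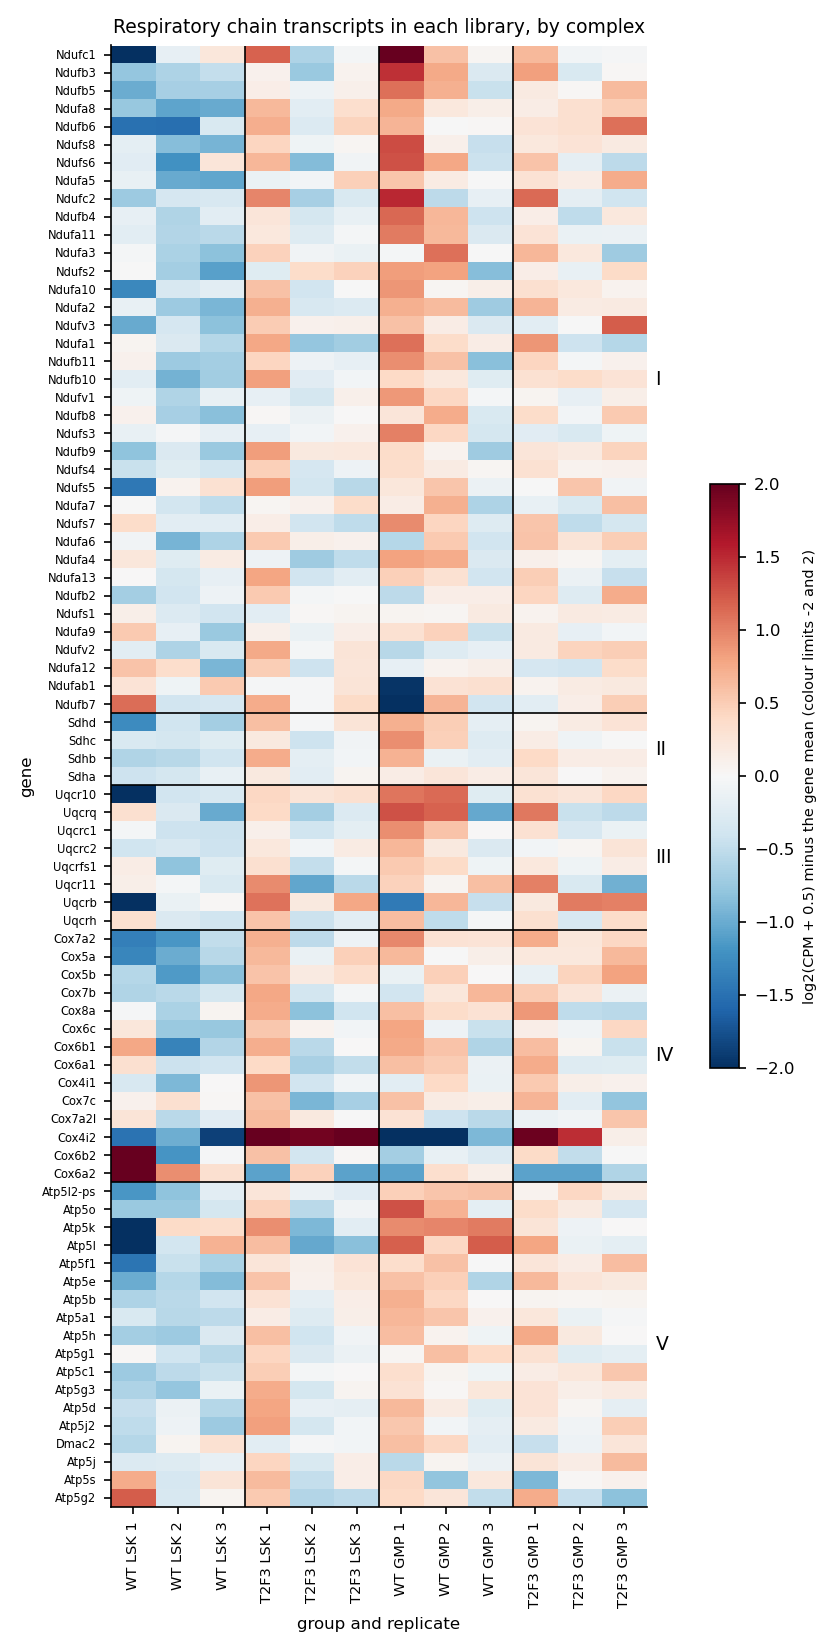
Heat map of the 81 tested members (rows, ordered by complex) in the 12 libraries (columns, by group), as log2(CPM + 0.5) minus the mean of the gene. The WT LSK columns are lowest for most members, and the T2F3 LSK columns differ among themselves, with T2F3 LSK 1 the highest library of all 12 for 16 members and WT GMP 1 for 30. The same counts were not made over all genes, and these 2 libraries had the lowest TMM scaling factors, 0.824 and 0.752.

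Cox4i2 had the largest fold of the called members. It encodes an isoform of subunit IV that is known from lung and from hypoxic cells and takes the place of the common isoform Cox4i1. Cox4i2 (ENSMUSG00000009876) measured 1.12, 1.79 and 0.739 CPM in the WT LSK libraries, against 49.1, 16.7 and 21.3 CPM in T2F3 LSK. The lowest T2F3 library was far above the highest WT library, and the difference was 23.9-fold (log2 4.56 ± 1.07, adjusted p = 0.0306). In GMP it measured 0, 0.130 and 1.92 CPM in the WT libraries, against 17.0, 12.1 and 4.41 CPM in T2F3, again without overlap, with a 16.3-fold difference that missed the threshold in edgeR (log2 4.04 ± 1.06, adjusted p = 0.0939). limma-voom (log2 5.21, adjusted p = 0.0367) and DESeq2 (log2 4.05, adjusted p = 0.000951) called this GMP difference, as did edgeR without WT GMP 3 (log2 7.14, adjusted p = 0.0116). In LSK, the edgeR call was lost without WT LSK 1, 2 or 3 (adjusted p = 0.0887, 0.0830 and 0.0864) and without T2F3 LSK 1 or 2 (0.120 and 0.0527), while the log2 difference stayed between 3.87 and 4.95 over all settings tried. The genotype effects in LSK and GMP differed by a log2 of 0.52 ± 1.39 (adjusted p = 0.945). No 50-base window of Cox4i2 was found in another gene's transcript.

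As a share of the 2 subunit IV isoforms, compared per length, Cox4i2 made up 0.886, 2.10 and 0.468% in WT LSK and 14.6, 12.2 and 12.4% in T2F3 LSK. In GMP it made up 0, 0.0629 and 1.33% in WT and 7.04, 6.65 and 2.60% in T2F3. Every T2F3 share was above every WT share in both populations, and T2F3 LSK 1, which had the highest CPM of the 12, did not stand apart from its group in the share. Cox4i1 stayed the main isoform in all 12 libraries, at 172, 115 and 215 CPM per kilobase in WT LSK and 395, 164 and 207 in T2F3 LSK (log2 0.61 ± 0.33, adjusted p = 0.310).

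**Figure D3:**
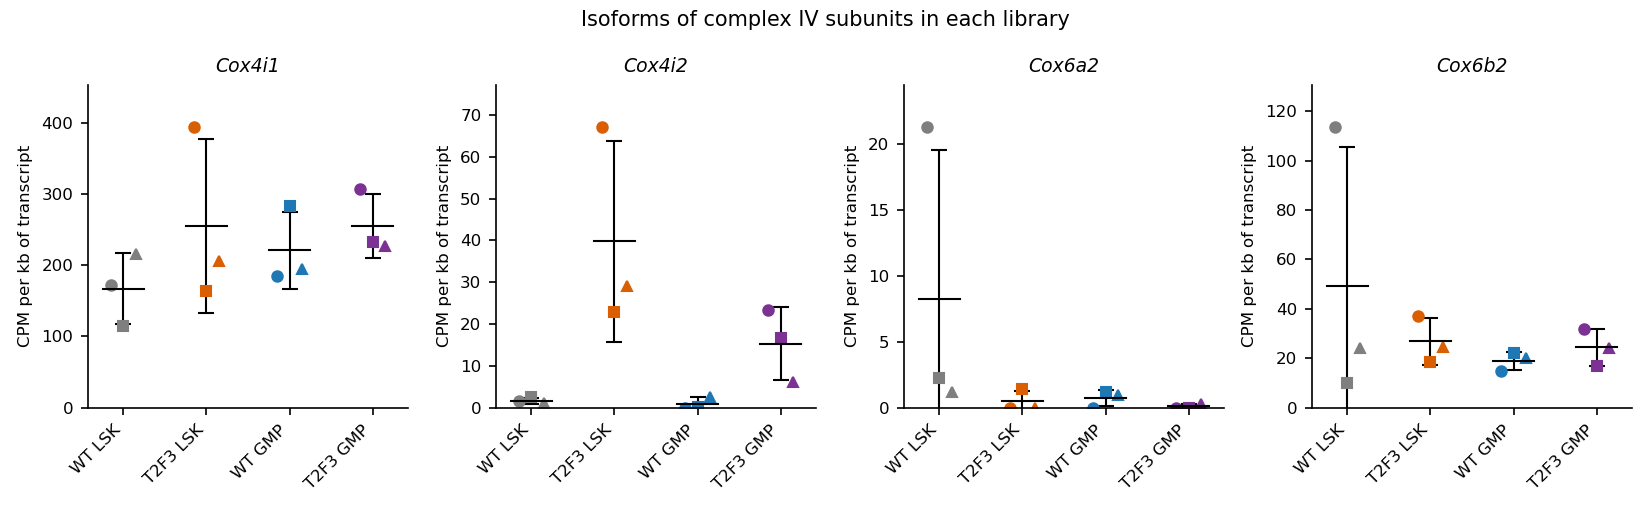
Levels per length (CPM per kilobase, vertical axes from 0) of Cox4i1, Cox4i2, Cox6a2 and Cox6b2 in each library, with the mean ± SD of 3 per group. Cox4i2 is near 0 in both WT groups and present in all 6 T2F3 libraries, while Cox6a2 and Cox6b2 are high in WT LSK 1 alone.

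The other isoforms of limited tissue range gave no call. Cox6a2, the heart and muscle form of subunit VIa, measured 14.5, 1.51 and 0.813 CPM in the WT LSK libraries, against 0, 0.959 and 0 CPM in T2F3 LSK (log2 -4.05 ± 1.84, adjusted p = 0.224), and WT LSK 1 held most of the WT level. Cox6b2, the testis form of subunit VIb, was also highest in WT LSK 1, at 49.5 CPM against 4.37 to 16.2 CPM in the other 11 libraries (log2 -0.88 ± 0.67 in LSK, adjusted p = 0.498). Cox7a1, the muscle form of subunit VIIa, had summed counts of 0 for WT LSK, 10 for T2F3 LSK, 1 for WT GMP and 6 for T2F3 GMP and was not tested. With the 0 of WT LSK raised to the 3 counts that 0 allows, the ratio of T2F3 LSK to WT LSK was 2.53. The 95% counting interval of the ratio started at 1.70, and T2F3 LSK 2 held none of the 10 counts. In GMP the ratio was 4.99, with a 95% counting interval of 0.606 to 229.6. Ndufa4l2, Cox8b and Cox8c, which the name rule would take, were not among the members it found.

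ATP synthase had the highest median difference in LSK, 0.60, with 2 calls. Atp5f1 (ENSMUSG00000000563), the b subunit of the peripheral stalk, measured 24.99, 51.0 and 44.9 CPM in the WT LSK libraries, against 82.9, 74.9 and 84.3 CPM in T2F3 LSK. It was 2.00-fold higher without overlap (log2 1.00 ± 0.26, adjusted p = 0.0447), and 38.7% of the 50-base windows of its transcript were shared with another gene. Atp5e (ENSMUSG00000016252), the epsilon subunit of the rotor, measured 24.5, 32.9 and 26.7 CPM in the WT LSK libraries, against 72.7, 52.0 and 57.4 CPM in T2F3 LSK. The groups did not overlap, and the difference was 2.17-fold (log2 1.11 ± 0.29, adjusted p = 0.0463). For both genes the call was kept only without WT GMP 1 or WT GMP 3. Atp5c1, the gamma subunit that turns within the catalytic head, measured 58.4, 67.1 and 71.2 CPM in the WT LSK libraries, against 136, 94.2 and 97.4 CPM in T2F3 LSK, without overlap, and its log2 difference of 0.74 ± 0.20 had an adjusted p of 0.0558.

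The c subunit that forms the proton-driven ring of ATP synthase is encoded by 3 genes, which did not share a direction in LSK. Atp5g3 stood at 65.0, 57.9 and 90.3 CPM in WT LSK, against 166, 77.5 and 103 CPM in T2F3 LSK (log2 0.70 ± 0.26, adjusted p = 0.135). Atp5g1 stood at 18.9, 14.1 and 12.5 CPM and 25.1, 15.2 and 17.2 CPM (log2 0.34 ± 0.31, adjusted p = 0.578). Atp5g2 stood at 136, 46.9 and 61.2 CPM and 84.9, 39.2 and 40.8 CPM (log2 -0.57 ± 0.48, adjusted p = 0.551). All 3 overlapped between the genotypes in LSK. In the main edgeR fit of all libraries, no c-subunit gene was called in any of the 5 comparisons. Other fits of all libraries did call some. limma-voom called Atp5g1 higher in WT GMP than in WT LSK. With the share of small noncoding RNA as a covariate, edgeR called Atp5g3 higher in WT GMP than in WT LSK, and in T2F3 LSK than in WT LSK.

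In GMP, no member was called between the genotypes in either direction by edgeR, where 0.679% of all genes were called higher and 0.461% lower. At an unadjusted p under 0.05, 3 were higher (Ndufv2, Cox4i2 and Atp5j, beside 7.01% of all genes) and 2 lower (Ndufs3 and Uqcrc1, beside 6.55%). limma-voom and DESeq2 each called 1, Cox4i2, higher. The libraries did not overlap for those 3 higher members and for 2 members on the lower side, Atp5k and Atp5l2-ps (12 and 9.72% of all genes). The log2 difference was above 0 for 30 members (51.3% of all genes) and below 0 for 51, with a median of -0.16 against 0.02 over all genes. Ndufv2, a core subunit with an iron-sulfur cluster, stood at 16.6, 20.6 and 22.0 CPM in WT GMP and 27.9, 33.9 and 34.9 CPM in T2F3 GMP, without overlap (log2 0.71 ± 0.26, adjusted p = 0.239). Its log2 difference in LSK was 0.74 ± 0.26 (adjusted p = 0.119). Atp5j, the F6 subunit of the stalk, stood at 19.6, 29.8 and 26.4 CPM in WT GMP and 34.5, 32.0 and 44.9 CPM in T2F3 GMP (log2 0.56 ± 0.26, adjusted p = 0.365). On the lower side, the core subunit Ndufs3 stood at 41.8, 27.5 and 16.1 CPM in WT GMP and 17.5, 16.5 and 19.3 CPM in T2F3 GMP (log2 -0.68 ± 0.31, adjusted p = 0.366). Uqcrc1 stood at 303, 236 and 159 CPM in WT GMP and 196, 127 and 145 CPM in T2F3 GMP (log2 -0.58 ± 0.26, adjusted p = 0.348). In both genes WT GMP 1 and 2 lay above all T2F3 libraries and WT GMP 3 did not. Ndufa11 (log2 -0.54), Sdhc (-0.44), Atp5a1 (-0.42) and Atp5o (-0.62) were also on the lower side, with adjusted p of 0.458 to 0.529. On the higher side, Ndufa6 had a log2 difference of 0.51 and Uqcrb one of 0.98, with adjusted p of 0.524 and 0.594.

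The difference between the genotype effects in LSK and in GMP was tested as an interaction. No member passed it by edgeR, where 0.0249% of all genes were called as more positive in LSK and 0% as more negative. limma-voom and DESeq2 also called 0 members, and 12 passed an unadjusted p under 0.05, all more positive in LSK (4.96% of all genes passed in that direction and 4.51% in the other). The interaction was above 0 for 74 members (51.3% of all genes) and below 0 for 7, with a median log2 of 0.67 against 0.02 over all genes. Without T2F3 LSK 1 the median was 0.35. The 12 were Ndufa8, Ndufa11, Ndufb5, Sdhd, Cox5a, Cox5b, Cox7a2, Atp5a1, Atp5b, Atp5e, Atp5f1 and Atp5o. For Ndufa8 the interaction was 1.32 ± 0.36 (adjusted p = 0.296), since its 3 WT GMP libraries stood at 63.8, 43.5 and 40.5 CPM and its T2F3 GMP libraries at 41.5, 46.8 and 52.8 CPM. For Sdhd it was 1.26 ± 0.38 (adjusted p = 0.348), with 199, 169.6 and 106 CPM in WT GMP and 126, 136 and 146 CPM in T2F3 GMP. For Cox5a it was 1.202 (adjusted p = 0.361), with 93.1, 59.3 and 64.7 CPM in WT GMP and 69.2, 68.9 and 93.9 CPM in T2F3 GMP. In these 3 genes the GMP libraries of both genotypes overlapped, at levels above all WT LSK libraries.

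Between the populations in WT, 12 of 81 members were higher in GMP than in LSK and none was lower. Over all genes, 5.72% were called higher and 7.37% lower. At an unadjusted p under 0.05, 33 members were higher (13.1% of all genes) and 0 lower (15.2%), and limma-voom called 25 higher and DESeq2 18, both with 0 lower. The log2 difference was above 0 for 72 members (50.2% of all genes), with a median of 0.67 against 0.01 over all genes. All WT GMP libraries lay above all WT LSK libraries for 30 members and below them for 0 (15.2 and 16.3% of all genes). Calls and medians were 3 of 37 and 0.74 in complex I, 1 of 4 and 0.74 in complex II, 0 of 8 and 0.59 in complex III, 2 of 14 and 0.48 in complex IV, and 6 of 18 and 0.73 in ATP synthase. The count was 2 without WT GMP 1, 3 without WT GMP 2 and 21 without WT GMP 3. It was 5, 4 and 7 without WT LSK 1, 2 and 3, and 9 to 13 without any 1 T2F3 library. This comparison and that of the genotypes in LSK share the 3 WT LSK libraries, so the values below are given side by side and not as separate support.

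Ndufa8, with its levels given above, was 2.55-fold higher in WT GMP than in WT LSK (log2 1.35 ± 0.26, adjusted p = 0.00521), and its call was kept under every setting tried for it. The other complex I members called were Ndufb5 and Ndufa11, accessory subunits of the membrane arm. Ndufb5 stood at 10.1, 12.9 and 12.9 CPM in WT LSK and 44.9, 34.01 and 15.01 CPM in WT GMP (log2 1.39 ± 0.36, adjusted p = 0.0230, and 0.0549 when LSK and GMP libraries were paired). Ndufa11 stood at 44.3, 34.2 and 35.2 CPM in WT LSK and 106, 81.2 and 42.0 CPM in WT GMP (log2 1.01 ± 0.29, adjusted p = 0.0389), and here WT GMP 3 overlapped WT LSK. Sdhd of complex II was 2.19-fold higher (log2 1.13 ± 0.27, adjusted p = 0.0162), and its sister anchor Sdhc measured 39.0, 37.6 and 40.7 CPM in WT LSK, against 92.5, 67.7 and 40.2 CPM in WT GMP (log2 0.77 ± 0.27, adjusted p = 0.0763). In complex IV, Cox5a was 2.31-fold higher (log2 1.21 ± 0.28, adjusted p = 0.0128). Cox7a2, the common form of subunit VIIa, went from 7.06, 8.18 and 13.4 CPM to 37.4, 23.4 and 23.0 CPM, without overlap and 2.93-fold higher (log2 1.55 ± 0.38, adjusted p = 0.0187). Cox4i2 was at 1.92 CPM or less in all 6 WT libraries, with a log2 difference of -0.86 ± 1.02 (adjusted p = 0.626).

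ATP synthase gave 6 of the 12 calls between the WT populations, and these covered the catalytic head, the rotor and the stalk. Atp5b stood at 426, 449.7 and 505 CPM in WT LSK and 1079, 878 and 662 CPM in WT GMP (log2 0.92 ± 0.23, adjusted p = 0.0197). Its partner Atp5a1 stood at 524, 436 and 448 CPM in WT LSK and 1019, 945 and 683 CPM in WT GMP (log2 0.91 ± 0.23, adjusted p = 0.0213). Neither gene overlapped between the populations. Atp5f1 was 2.19-fold higher (log2 1.13 ± 0.26, adjusted p = 0.0132), with 89.4, 106 and 69.9 CPM in WT GMP. Atp5c1 stood at 122, 99.9 and 91.4 CPM in WT GMP (log2 0.67 ± 0.20, adjusted p = 0.0452, and 0.0682 when paired), above all its WT LSK libraries. Atp5e stood at 73.9, 68.4 and 32.0 CPM in WT GMP (log2 1.05 ± 0.29, adjusted p = 0.0323), and the last of these lay within its WT LSK range. Atp5o, the subunit that ties the stalk to the head, stood at 15.03, 15.01 and 19.7 CPM in WT LSK and 62.0, 41.3 and 22.1 CPM in WT GMP (log2 1.33 ± 0.38, adjusted p = 0.0352, and 0.0641 when paired). Of the 50-base windows of its transcript, 50.3% were shared, on either strand, with other annotated gene entries, another entry named Atp5o among them. Leaving out 1 library ended the call in 1 of 12 fits for Cox5a (without WT GMP 1, adjusted p = 0.0534) and Atp5f1 (without WT GMP 2, 0.0570), in 3 to 6 for Sdhd, Cox7a2, Atp5a1, Atp5b, Atp5e, Ndufb5 and Atp5o, in 8 for Ndufa11 and in 10 for Atp5c1.

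In T2F3 cells the members gave no call between the populations, and their median difference depended on single libraries. By edgeR, 0 members were called between T2F3 GMP and T2F3 LSK in either direction, and limma-voom and DESeq2 called 0, where 0.274% of all genes were called higher in GMP and 0.698% lower. At an unadjusted p under 0.05, 0 members passed either way (2.88% of all genes higher, 5.11% lower). The median log2 difference was 0.07 against -0.02 over all genes, and 55 members were above 0 (47.6% of all genes). Without T2F3 LSK 1 the members' median was 0.30, with 71 members above 0. Without T2F3 LSK 2 it was -0.09, with 27 above 0. The median over all genes was -0.01 in both of these fits. The libraries did not overlap for 1 member, Ndufs1, the largest core subunit of complex I, at 43.6, 51.3 and 52.3 CPM in T2F3 LSK and 52.7, 57.4 and 56.4 CPM in T2F3 GMP (6.35% of all genes lay above and 8.97% below). Ndufa8 had group means close together, with 59.1, 32.4 and 47.4 CPM in T2F3 LSK beside 41.5, 46.8 and 52.8 CPM in T2F3 GMP. A p that misses the threshold does not show that the populations had equal levels.

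The 13 subunits encoded by mitochondrial DNA, which join the nuclear ones in complexes I, III, IV and V, did not show the same order of groups. They summed to 12526 ± 1281 CPM for WT LSK, 11882 ± 3616 for T2F3 LSK, 14346 ± 1621 for WT GMP and 13688.5 ± 343 for T2F3 GMP (SD, n = 3). By edgeR 0 of 13 were called in any comparison. At an unadjusted p under 0.05, 0 were higher and 2 lower in T2F3 LSK, and 0 passed in the other comparisons. mt-Nd4, a proton-pumping subunit of complex I, stood at 428, 397 and 399 CPM in WT LSK, against 208, 238 and 359 CPM in T2F3 LSK (log2 -0.60, adjusted p = 0.226). mt-Atp6, the proton channel of ATP synthase, stood at 365, 311 and 466 CPM in WT LSK, against 168, 265 and 306 CPM in T2F3 LSK (log2 -0.63, adjusted p = 0.228). The median log2 difference of the 13 was -0.16 between the genotypes in LSK, -0.13 between them in GMP and 0.01 between the populations in WT. The ratio of the mitochondrial to the nuclear sum was 3.10 ± 0.0778 for WT LSK, 2.24 ± 0.911 for T2F3 LSK, 2.24 ± 0.344 for WT GMP and 2.40 ± 0.218 for T2F3 GMP, and it was not tested. In T2F3 LSK it was 1.22, 2.53 and 2.97 in libraries 1, 2 and 3, all under the WT LSK mean.

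Other mitochondrial and metabolic gene lists were read in the same fit. Of 76 mitochondrial ribosomal protein genes, 2 (2.63%, beside 2.76% of all genes) were higher in T2F3 LSK and 0 lower, with a median log2 difference of 0.44. They were Mrpl11 (3.56, 5.49 and 10.4 CPM in WT LSK, against 39.5, 20.4 and 23.8 CPM in T2F3 LSK, log2 2.11, adjusted p = 0.0164) and Mrpl46 (log2 1.39, adjusted p = 0.0446). Of 51 assembly factors of the complexes, 0 were called in LSK by edgeR (8 higher and 0 lower at an unadjusted p under 0.05), with a median of 0.42. The closest was Atpaf2, which chaperones the alpha subunit of ATP synthase, at 29.9, 38.4 and 22.0 CPM in WT LSK, against 52.4, 69.7 and 70.7 CPM in T2F3 LSK (log2 1.10, adjusted p = 0.0625). Of 18 genes of the citric acid cycle and pyruvate dehydrogenase, 1 (5.56%) was higher and 0 lower in T2F3 LSK, namely Dld, the shared lipoamide dehydrogenase, at 11.4, 20.6 and 15.7 CPM in WT and 35.6, 33.7 and 39.6 CPM in T2F3 (log2 1.19 ± 0.31, adjusted p = 0.0454), and the median was 0.29.

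Glycolysis genes moved both ways in LSK, where 1 of 26 was higher and 2 were lower, beside 2.76 and 2.44% of all genes. Pgam1, phosphoglycerate mutase, stood at 55.0, 51.3 and 47.3 CPM in WT LSK, against 157, 101 and 139 CPM in T2F3 LSK (log2 1.37 ± 0.20, adjusted p = 0.00361). Hk1, a hexokinase, stood at 359, 241 and 214 CPM in WT LSK, against 99.7, 110.4 and 150.2 CPM in T2F3 LSK (log2 -1.18, adjusted p = 0.0214). Slc2a3, a glucose transporter, stood at 73.1, 90.3 and 79.8 CPM in WT LSK, against 20.5, 33.9 and 49.5 CPM in T2F3 LSK (log2 -1.22). Of 9 mitochondrial antioxidant genes, Prdx3, the mitochondrial peroxiredoxin, was higher in T2F3 LSK, at 97.6, 84.3 and 97.6 CPM against 49.9, 50.5 and 44.4 CPM in WT LSK (log2 0.95, adjusted p = 0.0216). No gene was called in LSK by edgeR among 18 carriers and cristae genes (6 higher and 0 lower at an unadjusted p under 0.05), 20 electron carrier and ubiquinone genes (0 and 1), and 21 genes of mitochondrial DNA upkeep and regulators of mitochondrial genes (0 and 1). The last list held Pprc1, a coactivator of the PGC-1 family, at 249, 233 and 187 CPM in WT LSK, against 108, 145 and 156 CPM in T2F3 LSK (log2 -0.71, adjusted p = 0.0840).

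In GMP, 1 gene of all these lists was called between the genotypes, on the lower side, where 0.461% of all genes were. List medians there ran from -0.30 (antioxidant genes) to 0.04 (assembly factors). Mcu, the pore of the mitochondrial calcium uniporter, stood at 121, 86.1 and 89.4 CPM in WT GMP and 37.8, 31.5 and 44.5 CPM in T2F3 GMP, without overlap (log2 -1.38, adjusted p = 0.0255). Between the populations in WT, where 5.72% of all genes were higher in GMP and 7.37% lower, the calls with higher level in GMP were 5 of 76 mitochondrial ribosomal proteins (6.58%), 7 of 18 citric acid cycle genes (38.9%, Ogdh and Dld among them), 11 of 26 glycolysis genes (42.3%) with 4 lower, 3 of 51 assembly factors (5.88%, Acad9, Coa3 and Atpaf2), 4 of 18 carriers and cristae genes (Slc25a5, Mcu, Letm1 and Immt) and 2 of 9 antioxidant genes (Prdx5 and Txn2). Of the 20 electron carrier genes, Cyc1 (log2 0.90), Etfb (1.57) and Sqor (1.33) were higher and Coq8a (-1.84) lower. Cyc1 stood at 136, 117 and 75.5 CPM in WT LSK and 242, 228 and 142 CPM in WT GMP. Medians were 0.58 for the mitochondrial ribosomal proteins, 0.68 for the citric acid cycle, 0.60 for glycolysis and 0.26 for the assembly factors. In T2F3, 0 genes of these lists were called between the populations by edgeR, and at an unadjusted p under 0.05 the glycolysis list had 3 higher and 4 lower, the carriers 1 higher and the other lists 0.

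**Figure D4:**
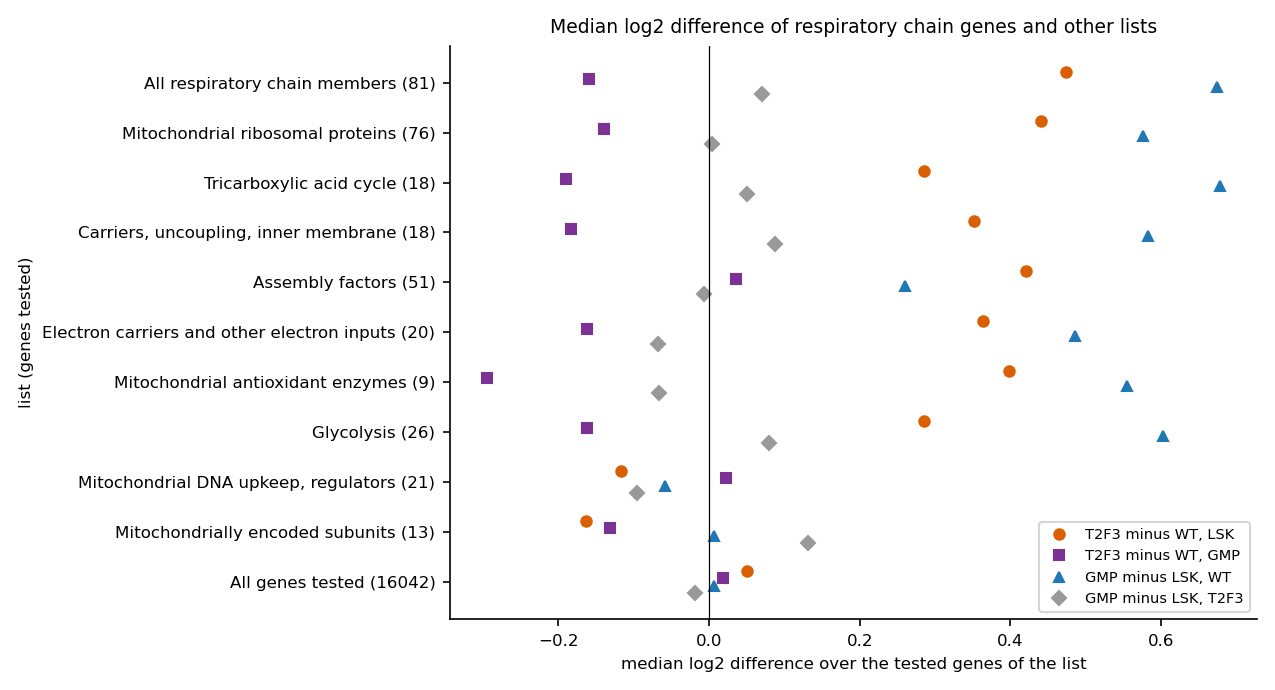
Median log2 difference of the members, of the other mitochondrial and metabolic gene lists and of all genes tested (one line each, vertical axis) in 4 comparisons (horizontal axes, log2). The members' median was 0.47 between the genotypes in LSK and 0.67 between the populations in WT, and -0.16 and 0.07 in the other 2 comparisons.

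Values within a library code, the only batch-like label of the libraries, whose meaning the labels do not give, were few. Within the code YOD, WT LSK 1 and T2F3 LSK 2 had member sums of 4404 and 4452 CPM, or 0.390 and 0.4995% of all counts. T2F3 LSK 1 and 3, with member sums of 7063 and 5311 CPM, carried the code LEI, which no WT LSK library carried. Among LSK libraries, a genotype difference that involves T2F3 LSK 1 or 3 therefore cannot be told apart from a difference by code. Within the code LUK, WT LSK 3 held 3976 CPM and WT GMP 1 held 7945 CPM, and within HAN, WT LSK 2 held 3719 CPM and WT GMP 3 held 4973 CPM. With the code as a block, 0 members were called between the genotypes in LSK (median log2 0.29) and 2, Ndufa8 and Cox5a, between the populations in WT. T2F3 LSK 3 had a monocyte and dendritic cell marker sum of 372 CPM, against 146 to 310 CPM in WT LSK. Its member sum of 5311 CPM lay above all WT LSK libraries. This is a single library, of the code LEI, and the part of the marker shifts in the member sums was not tested.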

How the data were processed

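RNA was taken up in Trizol, depleted of ribosomal RNA with RiboMinus and made into Ion Total RNA-seq libraries, per the labels' protocols, so short and unspliced RNA stays in. Tools were cutadapt 1.2rc2, TopHat, TopHat2 2, BWA 0.5.9, Picard and HTSeq on mm9, per the submitters' processing notes, with an order and a strand setting not given in the sources used here. Raw gene counts are what the authors deposited. All 21497 rows name a gene. Symbols came from GENCODE vM21 by Ensembl identifier (19939 matched), lengths from its transcripts, and promoters from RefSeq GRCm38.p6, with no coordinates from the files. A filter (filterByExpr, minimum count 10) left 16042 genes. TMM-scaled counts of all 12 libraries entered edgeR 4.0.16 in R 4.3.3 (8 residual degrees of freedom), with Benjamini-Hochberg adjustment within each of 5 comparisons. limma 3.58.1 (voom with quality weights per library) and DESeq2 1.42.0 were alternatives, beside other scalings, filters, blocks, a small-RNA covariate and leaving out libraries.

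Members and lists were chosen with earlier results of these data known. Named were members called by genotype, per complex and comparison up to 2 members per direction in order of p with a mean CPM of 5 or more, isoforms of limited tissue range, the c-subunit genes, and up to 3 genes of each other list. In addition, all members called in WT GMP against LSK and the called genes of other lists are named, which were chosen after their values were seen where the rule did not take them. No pair of replicates agreed within sampling noise. Floors (3 counts) and 95% intervals cover counting error only. LSK and GMP libraries that share genotype and number deviated together (correlation 0.111 to 0.161 in WT and 0.337 to 0.480 in T2F3, against -0.402 to 0.0294 for other numbers). They were paired in an alternative fit. Deviations were taken from the mean of each group of 3, so a positive value for the same number by itself lowers those for other numbers. The WT values lay within those of same numbers across genotypes (-0.0338 to 0.223), so the values alone do not establish a pairing in WT. The edgeR fit was tested on simulated counts with known changes in T2F3 LSK. Of 100 genes changed 2-fold it called 5, and of 100 changed 4-fold it called 55, all in the right direction, beside 2 unchanged genes. All other genes of the 15576 had the same mean in every group, while in the data 443 genes were called higher and 391 lower in T2F3 LSK. The adjustment is milder where more genes are called, so these shares do not carry over to the real comparison. Most 2-fold changes were missed in this simulation, and a lack of calls does not show a lack of change.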

Additional observations from a re-analysis of the deposited data

How the results depend on the processing

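Of the 7 members called higher in T2F3 LSK, 2 were called with the libraries of those 2 groups alone. With the replicate number as a block 4 of the 7 were called, though whether numbers pair across genotypes is not known. The count was 0 with library code as a block, without both T2F3 libraries numbered 1 or without all 4 libraries numbered 1. Leaving out 1 library gave 0 to 9. In GMP, limma-voom and DESeq2 each called 1 higher, and leaving out 1 library gave 0 or 1. In WT GMP against LSK, in place of 12 members called higher, there were 2 with the 2 groups alone, 2 with the code block, 25 with limma-voom (quality weights included), 19 with the small-RNA share as a covariate, 2 without both WT libraries numbered 1 (Ndufa8 and Cox5b) and 3 without all 4 libraries numbered 1 (these and Atp5g1). Of the last 2 sets, 1 member, Ndufa8, was among the 12. Leaving out 1 library gave 2 to 21 higher and 0 or 1 lower. The pairing of LSK and GMP libraries as a replicate block gave 11, of which 9 were among the 12. Ndufb5, Atp5c1 and Atp5o lost their calls, and Ndufs8 and Uqcrc1 gained one. The median interaction of 0.67 was 0.32 with the code block and 0.35 to 0.81 without 1 library. The cause of these shifts was not tested, and some of these fits hold fewer libraries. The Cox4i2 interaction changed sign with the paired replicate block (-0.51), the code block (-0.048), limma-voom (-1.11), and without T2F3 LSK 1 (-0.078) or WT GMP 3 (-2.58), and leaving out 1 library gave -2.58 to 1.08. Across all these settings, the median log2 difference stayed above 0 between the genotypes in LSK (0.23 to 0.63) and between the populations in WT (0.50 to 0.84), and it ran from -0.34 to 0.01 between the genotypes in GMP. Between the populations in T2F3 it ran from -0.09 to 0.30, with 0 members called in every setting.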

Other observations

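Members were short genes, with a median transcript of 745 bases (312 to 2900) against 2324 for all tested genes with a length. Across the 81 members, which are not independent replicates, the log2 difference between the genotypes in LSK had a correlation of -0.0484 with log length, and that between the populations in WT one of -0.0907. Of the members, 47 shared at least 1 window of 50 bases, on either strand, with a transcript of another gene entry. For 17 the shared windows were more than 20% of all windows of the transcript, and for 3 more than 50%. The 3 were Atp5l (84.8%), Atp5l2-ps (73.4%) and Atp5o (50.3%, with another entry named Atp5o among the matches), so their counts are uncertain. Ndufa8, Sdhd, Atp5e and Cox4i2 shared none.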
